A study of Mus musculus with 11 samples.

Results

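The genes described here are 7 tetraspanins of microglia, Cd9, Cd37, Cd53, Cd63, Cd81, Cd82 and Cd151, taken by name from a table of 16894 genes in which each of the 7 was found by its Entrez identifier. RNA was sequenced from 11 libraries of mouse microglia, the resident macrophages of the brain, and the question was whether microglia placed into a brain come to express the genes of naive ones. Cells of every library carried the Cx3cr1-GFP genotype, a green fluorescent reporter at the fractalkine receptor locus. The groups were primary microglia kept in culture (3 libraries), resident microglia (4) and transplanted microglia (4). Resident and transplanted cells were purified with a fluorescence-activated cell sorter and cultured cells were not labelled as sorted, so culture and sorting cannot be told apart. Transplanted cells were taken at 3 months, from mice whose own microglia had been depleted in 3 cycles with PLX3397, an inhibitor of the receptor Csf1r, at 600 mg/kg of chow. The labels list this feeding for all libraries, which leaves unstated whether donors of resident cells received it, and they give no age, no source of the transplanted cells and no statement that replicates came from separate animals or cultures. The p-values below therefore set differences between groups against the spread of these samples only, and that spread may be technical.

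Tetraspanins are small proteins that cross the membrane several times and carry a short and a long loop outside the cell. They bind one another and a circle of partner proteins, among them integrins, immunoglobulin-superfamily proteins and the protease Adam10, and so gather these partners into patches of membrane. Cd9 and Cd81 sit mainly at the cell surface, Cd63 cycles through late endosomes and lysosomes, Cd37 and Cd53 belong to leukocytes, Cd82 is known as a suppressor of metastasis, and Cd151 binds laminin-receptor integrins. Cd9, Cd63 and Cd81 are the usual protein markers of exosomes, the vesicles that cells release from late endosomes.

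Promoter windows from RefSeq (GRCm38.p6, 250 bases before to 50 bases after an annotated start) are shown for Cd63 and Cd81, because with TMM scaling these members had the largest differences between cultured and resident cells, in opposite directions. In TPM and with a length trend removed, Cd37 and Cd82 differed by more than Cd63. In TPM the median gene itself moved by -1.05. Relative to it Cd63 stood at 2.99, Cd37 at -2.10 and Cd82 at -2.09, so there Cd63 differed by more. The windows of Cd63 and Cd81 lie on the plus strand, Cd63 at chr10:128909095-128909394 and Cd81 at chr7:143052500-143052799. The Cd63 window lies within the span given for the gene below, at a start downstream of its first base, and windows at other starts of Cd63 are not shown. Capitals mark GAGGAA, the core of the sequence bound by the macrophage factor PU.1, on either strand.
Cd63: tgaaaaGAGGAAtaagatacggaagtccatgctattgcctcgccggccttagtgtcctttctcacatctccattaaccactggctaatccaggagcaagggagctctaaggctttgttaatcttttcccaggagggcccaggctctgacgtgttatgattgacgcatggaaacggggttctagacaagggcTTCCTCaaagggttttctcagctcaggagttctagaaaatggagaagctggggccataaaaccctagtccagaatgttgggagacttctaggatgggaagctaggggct
Cd81: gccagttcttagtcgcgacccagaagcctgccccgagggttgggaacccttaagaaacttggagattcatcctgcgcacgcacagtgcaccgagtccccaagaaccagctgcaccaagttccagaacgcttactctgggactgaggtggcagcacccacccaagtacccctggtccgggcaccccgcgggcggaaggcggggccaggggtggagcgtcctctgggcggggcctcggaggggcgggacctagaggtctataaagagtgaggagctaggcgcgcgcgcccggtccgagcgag
The Cd63 window held 2 matches, which began 244 and 59 bases before the start, and the Cd81 window held 0. The 3 short motifs searched on both strands were GAGGAA, the AP-1 site TGANTCA and the E-box CACGTG. They are found in 28.3%, 7.81% and 7.15% of the 32851 windows of the same length. The 7 genes had 11 windows. GAGGAA also stood in the windows of Cd37 and Cd53, with 2 matches each, and in 1 of 4 windows of Cd82. CACGTG stood once, in the Cd37 window, and TGANTCA in none of the 11. The windows also differed in base composition: the Cd81 window was 65.7% G or C with 23 CG dinucleotides, against 49.3% and 6 for Cd63, 46.3% and 4 for Cd53, and 61.3% and 18 for Cd9. A match describes these letters only.

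Libraries held 26705034 to 28219696 expected counts (cultured), 19055655 to 19965631 (resident) and 18692721 to 19761208 (transplanted). Of the microglia markers, Tmem119 stood at 8.95 to 13.5 counts scaled to library size (CPM) in cultured, 5779 to 6449.9 in resident and 4873 to 6559 in transplanted cells, and Csf1r at 2052 to 4078, 15436 to 16683 and 13455 to 15732. P2ry12 and Cx3cr1 were likewise present in every group, at or under 47.3 and 209.9 CPM in culture and at or above 2942 and 4218 CPM in the other libraries. The 6 markers of border-associated macrophages, which line the brain's surfaces and vessels, summed to 2884 to 3166 CPM in cultured, 52.0 to 108 in resident and 15 to 25.2 in transplanted cells. Mrc1, Pf4 and F13a1 carried the cultured sum, while mean levels of Lyve1 (0.423 against 3.63 CPM) and Cd163 (0.905 against 5.94) were lower in cultured than in resident libraries and those of Cbr2 were close (5.97 and 5.01). The 6 monocyte markers summed to 237 to 290.3, 10 to 16.8 and 13 to 17.0 CPM, and of these Plac8 was lower in cultured than in resident libraries (means of 0.0327 and 0.497 CPM). Platelets are rich in Cd9, and their 6 markers summed to 7.87 to 8.01, 123 to 148 and 85.1 to 127 CPM. Of these, Itga2b stayed at or under 0.442 CPM in every library, and in resident and transplanted libraries Ppbp was at 0 and Gp1bb at or under 0.0456, while Gp9 and Itgb3 reached 49.2 and 107 CPM in resident cells. B cells carry Cd37, Cd53 and Cd81, and their markers Ms4a1 and Cd79a each stayed at or under 0.541 CPM in every library, while Cd79b stood at 17.5 to 26.2 CPM in resident and at or under 1.54 CPM in the other libraries. The part of other cells in the results was otherwise not tested, and in RNA from many cells a smaller number of expressing cells and less RNA per cell cannot be told apart.

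The make-up of tetraspanin transcripts differed between culture and brain. Levels of different genes were compared in the deposited TPM, which corrects for gene length. Cd63 was the most abundant of the 7 in cultured cells at 2384 ± 441 TPM (SD, n = 3), followed by Cd9 at 1206 ± 42.5, Cd53 at 480.4 ± 106, Cd81 at 298 ± 29.0, Cd37 at 103 ± 9.32, Cd82 at 38.1 ± 1.5 and Cd151 at 13.2 ± 1.34, and no neighbours in this order overlapped. In resident cells Cd81 led at 5078 ± 395 TPM (SD, n = 4), followed by Cd9 at 2333 ± 253, Cd53 at 1036 ± 86.5, Cd37 at 920.0 ± 35.9, Cd63 at 615 ± 41.9, Cd82 at 343 ± 18.2 and Cd151 at 47.0 ± 2.59. Only Cd53 and Cd37 overlapped as neighbours there. Transplanted cells had the resident order, with Cd81 at 6232 ± 287, Cd9 at 2239 ± 415, Cd53 at 950.4 ± 56.3, Cd37 at 846 ± 42.6, Cd63 at 789.7 ± 95.5, Cd82 at 405 ± 43.5 and Cd151 at 45.2 ± 4.79 TPM (SD, n = 4), and Cd37 and Cd63 were the neighbours that overlapped. By mean TPM over all genes, Cd81 ranked 19 in resident, 16 in transplanted and 418 in cultured cells, while Cd63 ranked 174, 118 and 37.

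Shares within a library do not depend on how libraries are scaled to one another. They can still carry a dependence on gene length that differs between groups. With that length trend removed, the log2 fold change of cultured against resident cells was 1.85 for Cd63 and -3.43 for Cd81, against 3.08 and -2.99 without. Shares with the trend removed were not computed. Cd63 made up 48.4% to 60% of the summed TPM of the 7 genes of cultured libraries. Its share was 5.15% to 6.59% in resident libraries and 5.79% to 7.81% in transplanted ones. Cd81 made up 5.5% to 7.23%, 46.4% to 51.4% and 50% to 57.6%. The ratio of Cd81 to Cd63 TPM was 0.0916 to 0.149 in cultured, 7.45 to 9.98 in resident and 6.71 to 9.43 in transplanted cells, so that resident and transplanted values overlapped and cultured values lay far below both. The share of Cd9 was 24.1% to 28.3%, 21% to 24.5% and 15.8% to 23.8%, with each cultured library above each transplanted one. The ratio of Cd37 to Cd53, the leukocyte members, was 0.193 to 0.258 in cultured, 0.77 to 1.01 in resident and 0.847 to 0.959 in transplanted cells.

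**Figure D1:**
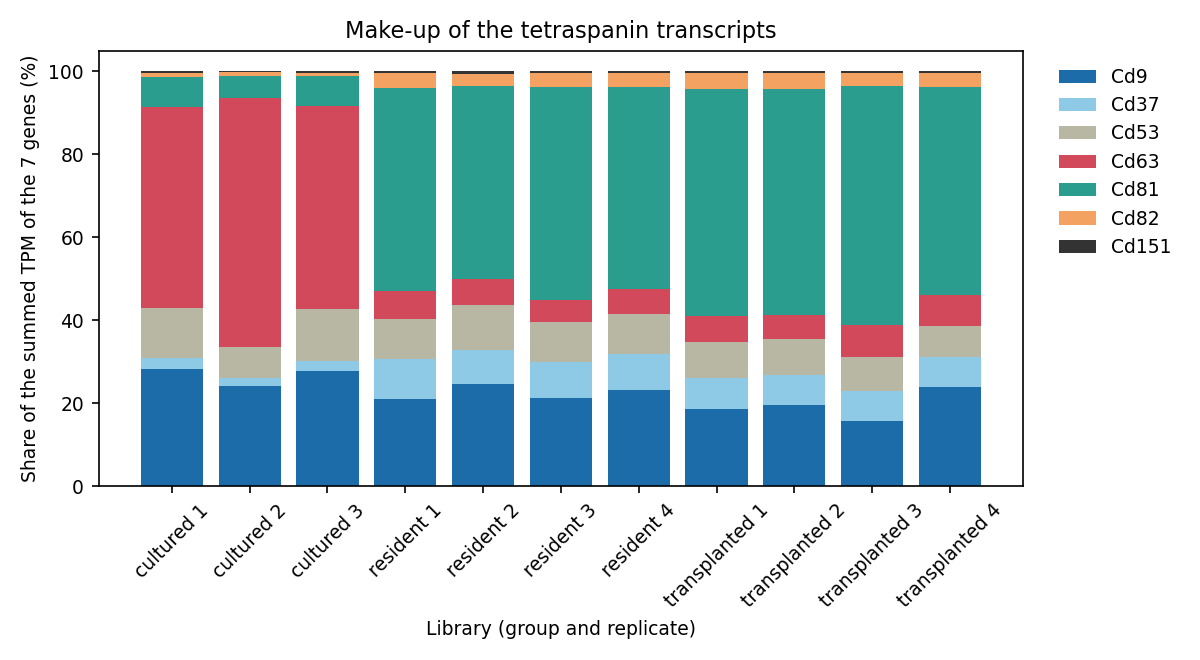
Stacked bars give each gene's share (%) of the summed TPM of the 7 tetraspanins in each of the 11 libraries. Cd63 fills 48.4% to 60% of the cultured bars, and Cd81 fills 46.4% to 57.6% of the resident and transplanted bars. The length trend that differed between groups was not removed from these shares.

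In cultured against resident cells, 1 of the 7 members was higher (Cd63) and 4 were lower (Cd81, Cd37, Cd82 and Cd151), with a median log2 fold change of -0.77, against -0.02 over the 12406 genes tested. All 7 passed the filter on low counts. Calls were as common over all genes, 75.1% in either direction (37.9% higher and 37.2% lower), so the count of 5 of 7 is near the background and the sizes carry the description. The test was edgeR's quasi-likelihood test on each pair of groups, called at an adjusted p under 0.05 over all genes tested, and levels below are CPM scaled by TMM across the 11 libraries.

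Cd63 (Entrez 12512, chromosome 10: 128896231 to 128912822, GRCm38.p6), the tetraspanin of late endosomes and exosomes, stood at 1405, 2106 and 1391 CPM in cultured libraries 1 to 3 and at 198, 204, 173 and 207 CPM in resident libraries 1 to 4. Every cultured library lay above every resident one, and cultured replicate 2 was the highest. Cd63 was 8.47-fold higher in cultured cells (log2 fold change 3.08 ± 0.17 SE, adjusted p = 3.33e-07). Cultured and resident libraries differed in how counts depended on gene length, and after removal of that length trend the value was 1.85 (adjusted p = 2.48e-07).

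Cd81 (Entrez 12520, chromosome 7: 143052750 to 143067930), which organises the surface of lymphocytes and macrophages, stood at 399, 364 and 389.8 CPM in cultured and at 2814, 2920.3, 3328 and 3300.0 CPM in resident libraries. All resident libraries lay above all cultured ones by several fold. It was 7.93-fold lower in cultured cells (-2.99 ± 0.12, adjusted p = 5.49e-08), and the value lay between -4.09 and -2.95 over the 13 alternatives.

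Cd37 and Cd82 differed by nearly the same amount. Cd37 (Entrez 12493, chromosome 7: 45233632 to 45239340), a tetraspanin of leukocytes that associates with the receptor Clec7a, stood at 115, 106 and 109 CPM in cultured and at 464, 447, 479.6 and 487 in resident libraries (-2.08 ± 0.10, adjusted p = 1.96e-07). Cd82 (Entrez 12521, chromosome 2: 93419102 to 93462950), which curbs cell migration, stood at 61.2, 57.7 and 54.8 against 235, 234, 258 and 264 CPM (-2.08 ± 0.10, adjusted p = 2.14e-07). For both genes the cultured libraries lay tightly together and 4.22-fold (Cd37) and 4.23-fold (Cd82) below the resident ones. Cd151 (Entrez 12476, chromosome 7: 141467362 to 141471481), the partner of laminin-binding integrins and the least abundant member, stood at 22.3, 19.2 and 20.9 against 34.1, 38.5, 34.5 and 36.7 CPM (-0.77 ± 0.11, adjusted p = 0.000177), again without overlap. Libraries of the groups were fully separated at 5 of the 7 members, and at 75.8% of all genes tested.

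Cd9 and Cd53 had close levels in culture and brain when counts were scaled by TMM. Cd9 (Entrez 12527, chromosome 6: 125460266 to 125494760), which takes part in cell fusion, motility and vesicle formation, stood at 1176, 1203 and 1140.3 CPM in cultured and at 903, 1159.6, 1029 and 1173 CPM in resident libraries. The groups overlapped, and the log2 fold change was 0.16 ± 0.12 (95% interval -0.07 to 0.39, adjusted p = 0.245). Its direction depended on the scale: it was -0.95 in TPM (adjusted p = 3.38e-05), where the median gene itself moved by -1.05 and Cd9 stood 0.10 above it, and -0.63 with the length trend removed (adjusted p = 0.00114), where the median gene moved by 0.18. Cd53 (Entrez 12508, chromosome 3: 106758861 to 106790149), a leukocyte tetraspanin that supports recruitment and adhesion, stood at 1343, 979.8 and 1361 against 1104, 1361, 1246 and 1332 CPM. Cultured replicate 2 was the lowest library, the groups overlapped, and the log2 fold change was -0.02 ± 0.14 (adjusted p = 0.915). It was 0.09 without cultured replicate 2, 0.13 with the length trend removed, and -1.13 in TPM (adjusted p = 0.000121), or -0.08 relative to the median gene. In TPM, 1 member was higher and 6 were lower, beside 2089 higher and 7898 lower of all genes, against 4704 and 4612 with TMM.

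**Figure D2:**
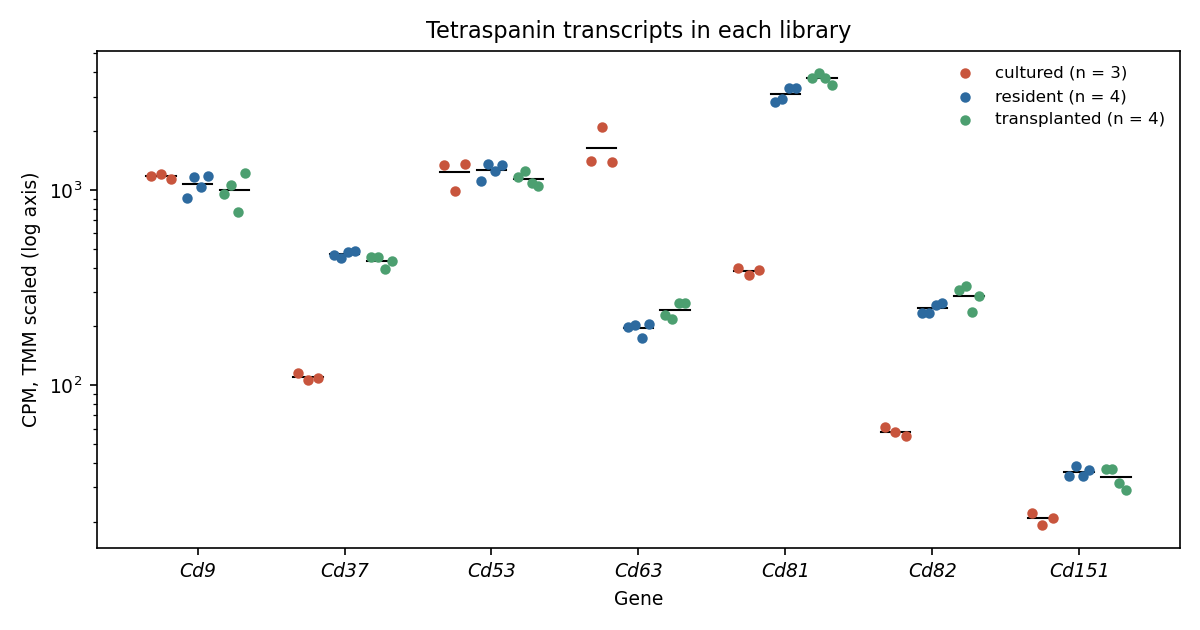
Each point is the level of 1 gene in 1 library in CPM with TMM scaling, on a log axis, and each bar is the group mean (3 cultured, 4 resident and 4 transplanted libraries). Cultured points lie above the others for Cd63 and below them for Cd37, Cd81, Cd82 and Cd151.

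Transplanted cells lay near resident cells at all 7 members, with differences of at most 1.25-fold. Of the 7, Cd63 and Cd81 were called higher, 0 were called lower and 5 did not pass the test (3 higher and 0 lower at an unadjusted p under 0.05). With DESeq2 the counts were also 2 and 0. Over the 11929 genes tested, 13% were called, 7.17% higher and 5.86% lower. The 7 had a median log2 fold change of -0.09, and all genes one of 0.02.

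Cd63 stood at 229, 218, 263 and 263 CPM in transplanted libraries 1 to 4, all above the highest resident library at 207. It was 1.25-fold higher (0.32 ± 0.09, adjusted p = 0.0347). Cd81 stood at 3728, 3942, 3738 and 3434 CPM, all above the highest resident library at 3328, and was 1.21-fold higher (0.27 ± 0.08, adjusted p = 0.0424). Both calls lie close to the threshold. Libraries were fully separated at these 2 genes of the 7, and at 19.7% of all genes tested.

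The Cd63 call was lost without any 1 of the 4 resident libraries or without transplanted replicate 3 or 4 (adjusted p up to 0.116), and the Cd81 call without any 1 resident library or transplanted replicate 1, 2 or 3 (adjusted p up to 0.154). In a single fit of all 3 groups neither passed (adjusted p = 0.237 and 0.11), and without the filter Cd81 did not (adjusted p = 0.0772). The direction was higher in each of the 14 alternatives for both genes, at 0.25 to 0.44 for Cd63 and 0.21 to 0.30 for Cd81.

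**Figure D3:**
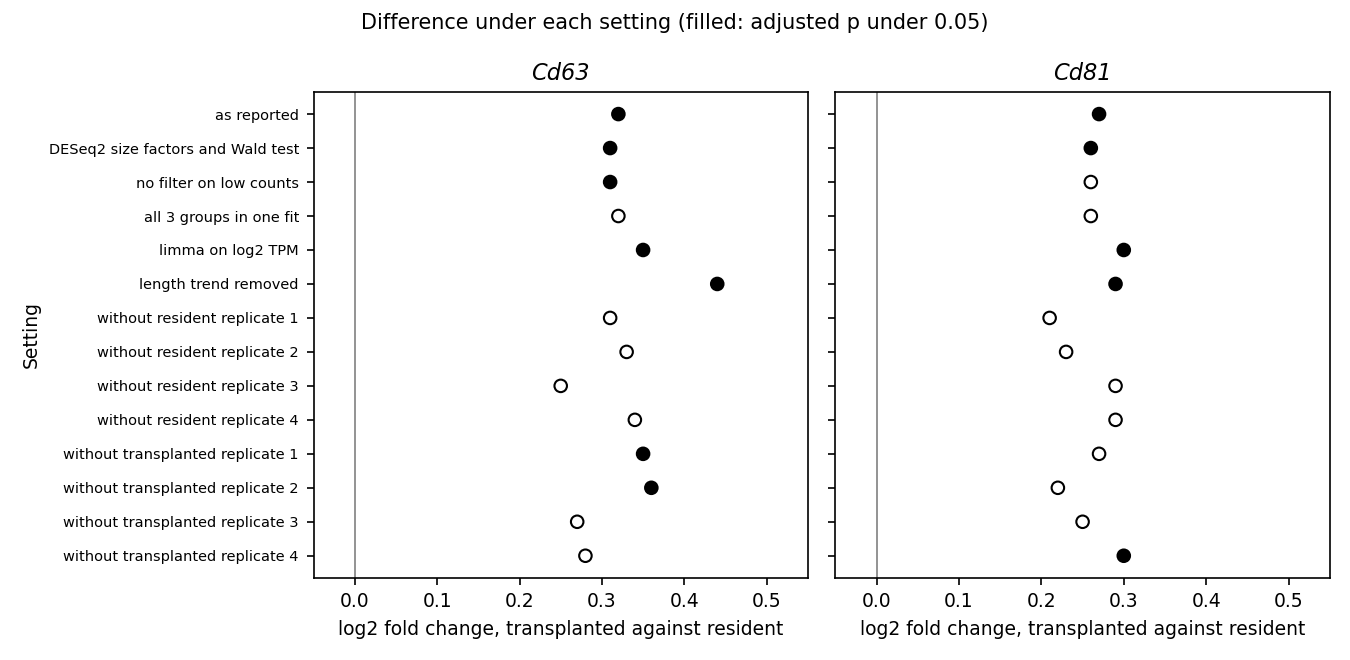
The log2 fold change of Cd63 (left) and Cd81 (right) in transplanted against resident cells is drawn for the reported fit and each alternative except the replicate block, filled where the adjusted p was under 0.05. Values stay between 0.21 and 0.44, and the call is lost in most settings that leave out 1 library.

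At the other 5 members the libraries of the groups overlapped. Cd82 stood at 306, 320.6, 236 and 286 CPM in transplanted cells (0.22 ± 0.10, adjusted p = 0.18), with replicate 3 the lowest. Without that library the value was 0.29 and passed the test (adjusted p = 0.0388). Cd9 ranged widely among transplanted libraries, at 947, 1058, 769.5 and 1222 CPM (-0.09 ± 0.14, 95% interval -0.36 to 0.18, adjusted p = 0.725). Cd37 stood at 450.2, 454, 394 and 432 CPM (-0.11 ± 0.07, adjusted p = 0.327) and Cd53 at 1165, 1242, 1079.8 and 1051 CPM (-0.15 ± 0.08, adjusted p = 0.295). Replicate 3 was the lowest of the 4 for Cd9, Cd37 and Cd82. Cd151 stood at 37.1, 37.3, 31.5 and 29.0 CPM (-0.09 ± 0.09, adjusted p = 0.587). A p that misses the threshold does not show equal levels, but the 95% intervals of these 5 members all lay between -0.36 and 0.41, short of 1.5-fold. In simulated counts for this comparison, 54% of genes changed by 1.5-fold were called. Those genes were drawn from all genes tested and do not describe these members.

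Against cultured cells, transplanted cells had 4 members higher and 1 lower, with a median of 0.70 against 0.05 over the 12284 genes tested, of which 72.4% were called (36.9% higher and 35.5% lower). This comparison shares the transplanted libraries with the one above and the cultured libraries with the first. Cd81 was 9.68-fold higher (3.28 ± 0.13, adjusted p = 2.84e-08), Cd82 4.98-fold (2.32 ± 0.14, adjusted p = 4.33e-07), Cd37 3.95-fold (1.98 ± 0.12, adjusted p = 3.39e-07) and Cd151 1.62-fold (0.70 ± 0.15, adjusted p = 0.00176). Cd63 was 6.69-fold lower (-2.74 ± 0.17, adjusted p = 5.2e-07), and -1.43 with the length trend removed. Cd9 stood at -0.23 ± 0.16 (adjusted p = 0.215) and Cd53 at -0.11 ± 0.14 (adjusted p = 0.51). Full separation of the libraries held at 5 of the 7 members, and at 73.3% of all genes tested. Cd9 and Cd53 had the opposite sign in TPM, at 0.87 and 1.01, where the median gene moved by 1.04. With the length trend removed, Cd9 stood at 0.61 and Cd53 at -0.32 (adjusted p = 0.0453), where the median gene moved by -0.24. Without cultured replicate 2, Cd53 was called lower (-0.25, adjusted p = 0.0434).

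**Figure D4:**
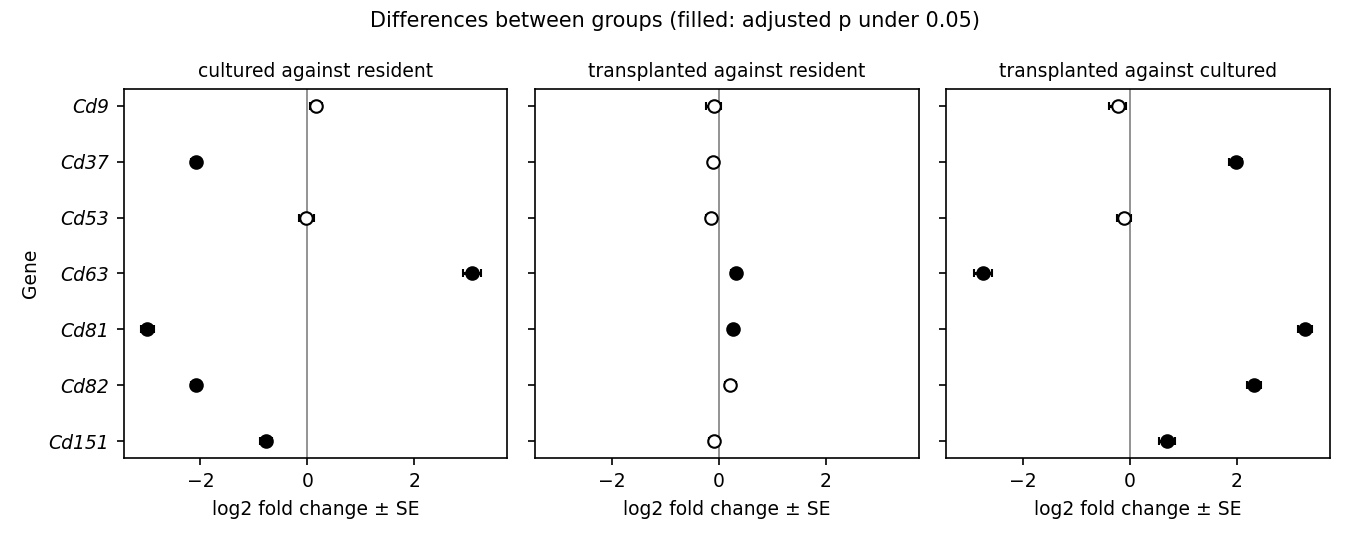
Points are log2 fold changes from edgeR with their SE for the 7 genes in each of the 3 comparisons, the first-named group being higher to the right, and filled points have an adjusted p under 0.05. The differences of Cd63 and Cd81 point in opposite directions in both comparisons with cultured cells, and all 7 values lie between -0.15 and 0.32 in transplanted against resident cells.

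The family holds 24 other tetraspanin genes in the table. The 7 members made up 87.2% to 90.1% of the summed TPM of all 31 tetraspanins in cultured, 80.7% to 81.3% in resident and 83.5% to 84.8% in transplanted cells. Of the 15 others tested between cultured and resident cells, 5 were higher and 8 lower (median -1.50), a share of calls that is again to be read against 75.1% of all genes. In TPM 3 were higher and 12 lower, beside 2089 higher and 7898 lower of all genes. The 3 with the largest differences downwards were Upk1b, Tspan13 and Tspan9. Upk1b, a uroplakin known from the bladder lining, stood at 215 ± 18.2 CPM in resident and 23.3 ± 10.7 CPM in transplanted cells and had 1 count over the 3 cultured libraries, in replicate 3. The ratio of transplanted to cultured levels was 1431 (95% counting interval 257 to 56529). Tspan13 stood at 2.93 ± 0.562 CPM in cultured and 154.5 ± 17.0 in resident cells (-5.70 ± 0.18, adjusted p = 1.6e-08), and Tspan9 at 2.11 ± 0.658 and 58.8 ± 3.12 (-4.78 ± 0.20, adjusted p = 7.44e-08).

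Among the TspanC8 genes, whose proteins escort the protease Adam10 to the surface, Tspan14 was lower in cultured cells (-1.87 ± 0.13, adjusted p = 1.44e-06) and so was Tspan33 (-1.50 ± 0.27, adjusted p = 0.000704). Tspan17 and Tspan5 of the same subgroup were higher, at 3.58 ± 0.30 (adjusted p = 5.23e-06) and 1.74 ± 0.25 (adjusted p = 0.000197). By TPM, Tspan14 was the most abundant of the 4 in each group, at 561 ± 16.4 in resident and 72.0 ± 13.2 in cultured cells, against 18.8 ± 7.65 for Tspan17 in cultured cells. Adam10 itself stood at 346 CPM in cultured and 419 CPM in resident cells (-0.26 ± 0.12, adjusted p = 0.0749). Tspan32, which lies near Cd81 on chromosome 7, was higher in cultured cells (0.54 ± 0.21, adjusted p = 0.0426). In TPM it stood at -0.55, where the median gene moved by -1.05. Tspan32 was not called without the filter (adjusted p = 0.0679), with the length trend removed (adjusted p = 0.497), or without cultured replicate 1 or 3 or resident replicate 1, 2 or 3 (adjusted p up to 0.168). Tspan4, known for migrasomes, the vesicles on retraction fibres, was higher by 0.49 ± 0.11 (adjusted p = 0.00338). It stood at -0.61 in TPM, where the median gene moved by -1.05. With the length trend removed it stood at -0.13, where the median gene moved by 0.18.

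Between transplanted and resident cells, 2 of 14 other tetraspanins were higher and 4 lower, beside 13% of all genes called. Upk1b was lower by 3.20 on the log2 scale in transplanted than in resident cells (standard error 0.30, adjusted p = 9.5e-05). This was the largest difference among the tetraspanins tested in this comparison. It stood at 188, 222, 221 and 228 CPM in resident libraries and at 33.9, 29.9, 10.5 and 18.6 CPM in transplanted ones, with no overlap. Tspan9 was lower (-0.97 ± 0.09, adjusted p = 0.000123), and so were Tspan33 (-0.59 ± 0.13, adjusted p = 0.014, but 0.124 in a single fit of the 3 groups) and Tspan7 (-0.42 ± 0.12, adjusted p = 0.0377). Tspan32 was higher (1.06 ± 0.18, adjusted p = 0.00344), at 34.2, 31.4, 23.3 and 27.0 against 9.74, 12.7, 15.8 and 17.5 CPM, again without overlap. Tspan14 was higher by 0.21 ± 0.06 (adjusted p = 0.0434), a call lost in a single fit of the 3 groups, without the filter, with the length trend removed and without any 1 library other than transplanted replicate 3 (adjusted p up to 0.288). Against cultured cells 9 of 14 were higher and 4 lower, beside 72.4% of all genes called (36.9% higher and 35.5% lower). There Tspan13 stood at 5.39 ± 0.24 (adjusted p = 5.68e-08), Tspan9 at 3.82 ± 0.24, Tspan17 at -3.24 ± 0.36, Tspan5 at -2.25 ± 0.36 and Tspan4 at -0.62 ± 0.10. In TPM Tspan4 stood at 0.50, where the median gene moved by 1.04.

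**Figure D5:**
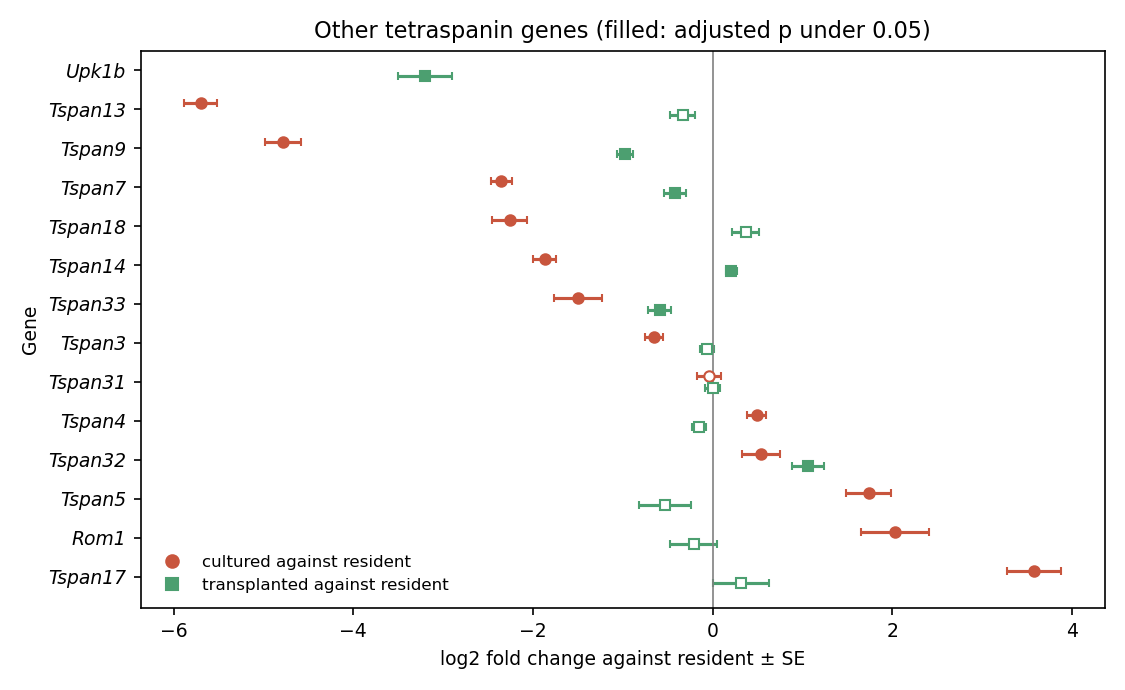
Log2 fold changes with SE of 14 other tetraspanin genes are drawn for cultured (circles) and transplanted (squares) against the same resident libraries, filled where the adjusted p was under 0.05. Upk1b has no circle because it had 1 count over the cultured libraries. Its square, at -3.20, lies farthest from 0 among the squares.

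Genes for partners of tetraspanins were next read from the same fits. Of 27 partners tested between cultured and resident cells, 15 were higher and 7 lower (median 0.57), and 10 and 13 in TPM. Over all genes 75.1% were called, so the number of calls is near the background. In TPM 2089 of all genes were higher and 7898 lower. Cd44, the hyaluronan receptor, was higher by 9.18 ± 0.14 (649 ± 22.9 against 1.13 ± 0.122 CPM, adjusted p = 2.26e-09). Clec7a, the glucan receptor dectin-1, with which Cd37 and Cd63 associate, was higher by 7.13 ± 0.18 (1627 ± 101 against 11.8 ± 2.28 CPM, adjusted p = 6.36e-09). The scavenger receptor gene Cd36 was higher by 6.32 ± 0.30 (adjusted p = 1.35e-07). Timp1, a metalloproteinase inhibitor that binds Cd63, stood at 12.3, 15.7 and 9.77 CPM in cultured libraries and had 0 counts in resident ones, at least 364-fold higher against 3 counts over the group. Lower were the adhesion ligands Vcam1 (-5.65 ± 0.49, adjusted p = 5.99e-06) and Icam1 (-1.41 ± 0.20), the MHC class II chain gene H2-Aa (-4.57 ± 0.42) and the kinase gene Prkca (-2.24 ± 0.28). Vcam1 stood at 0.096 to 0.54 CPM in cultured libraries, where 3 counts are 0.144 to 0.147 CPM. The other class II genes of the list were not called, H2-Ab1 at -0.11 ± 0.23 (adjusted p = 0.682) and Cd74 at 0.14 ± 0.23 (adjusted p = 0.597). With the length trend removed they were called lower, at -0.91 (adjusted p = 0.00459) and -0.57 (adjusted p = 0.038). The integrin chains differed among themselves: Itga4 was higher by 3.99 ± 0.23, while Itga6 stood at -0.14 ± 0.12 (adjusted p = 0.308) and Itgb1 at 0.36 ± 0.19 (adjusted p = 0.114). The summed border-associated macrophage and monocyte markers were also higher in the cultured libraries, as given above, though not each marker in them, and Itga4 is one of the monocyte list. Their part in these differences was not tested.

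In transplanted against resident cells, 8 of 23 partners were higher and 4 lower (median 0.23), against 7.17% and 5.86% of all genes. Cd44 stood at 18.9, 14.3, 17.9 and 20.9 CPM in transplanted libraries and between 0.979 and 1.28 CPM in resident ones (3.99 ± 0.16, adjusted p = 3.73e-07). Clec7a was higher by 2.11 ± 0.23 (50.5 ± 17.8 against 11.8 ± 2.28 CPM, adjusted p = 0.000229), Ezr, which ties the membrane to actin, by 1.90 ± 0.27 (adjusted p = 0.00123) and Vcam1 by 1.72 ± 0.30 (adjusted p = 0.00438). Igsf8, the immunoglobulin-superfamily protein that binds Cd9 and Cd81 directly, was higher by 0.75 ± 0.10 (126 against 75.2 CPM, adjusted p = 0.000747). The class II genes were lower: H2-Aa at -3.81 ± 0.38 (adjusted p = 0.000133), H2-Ab1 at -2.32 ± 0.27 (adjusted p = 0.000333) and Cd74 at -1.97 ± 0.24 (adjusted p = 0.000421). Prkca was lower too (-0.54 ± 0.09, adjusted p = 0.00374), a call lost in a single fit of the 3 groups (adjusted p = 0.174). The summed border-associated macrophage markers were lower as well, at 15 to 25.2 CPM in transplanted and 52.0 to 108 in resident libraries, and the B cell marker Cd79b stood at 0.241 to 0.479 and 17.5 to 26.2 CPM. For both, their part in the class II difference was not tested.

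Against cultured cells, 8 of 28 partners were higher and 15 lower in transplanted cells (median -1.38), beside 36.9% and 35.5% of all genes. Vcam1 was higher by 7.40 ± 0.53 (adjusted p = 1.13e-06), Icam1 by 1.95 ± 0.22, the membrane protease gene Mmp14 by 1.84 ± 0.37 and Prkca by 1.73 ± 0.29. Mean CPM of Vcam1 was 50.1 in transplanted and 0.294 in cultured cells, the latter near the 0.144 to 0.147 CPM of 3 counts. Cd36 was lower at -7.18 ± 0.34 (adjusted p = 9.21e-08), the antiviral membrane protein gene Ifitm3 at -5.29 ± 0.29 and Cd44 at -5.17 ± 0.16. Timp1 had 1 count over the transplanted libraries, and the ratio of cultured to transplanted levels was 1073.5 (95% counting interval 193 to 42402). Mean CPM of Cd44 was 649 in cultured, 18.0 in transplanted and 1.13 in resident cells, and that of Clec7a 1627, 50.5 and 11.8.

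Genes of exosome formation and late endosomes, the route that Cd63 follows, showed a smaller range. Of 15 vesicle genes tested between cultured and resident cells, 7 were higher and 3 lower (median 0.05), beside 75.1% of all genes called. In TPM the counts were 3 and 8, beside 2089 higher and 7898 lower of all genes. Sdcbp, which encodes syntenin, the adaptor that binds Cd63, stood at 2441, 1357 and 2450.3 CPM in cultured and between 487 and 534 CPM in resident libraries (2.04 ± 0.20, adjusted p = 1.26e-05). Cultured replicate 2, the library highest in Cd63, was the lowest of the 3 in Sdcbp. The ESCRT gene Chmp4b was higher by 3.05 ± 0.44 (8.82 against 1.07 CPM, adjusted p = 0.000178), and the lysosomal membrane gene Lamp1 by 1.34 ± 0.25 (adjusted p = 0.000973). Lamp1 ranged from 1371 to 3241 CPM in cultured and from 791 to 991 CPM in resident libraries. In TPM, where the median gene moved by -1.05, these groups overlapped at Lamp1, with 689 to 1705 and 848 to 1057. Lower were Rab27a, which docks exosome-bearing endosomes (-2.27 ± 0.16, adjusted p = 1.88e-06), and the ESCRT gene Stam (-0.76 ± 0.18, adjusted p = 0.00378).

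Between transplanted and resident cells 0 of the 15 were higher and 2 lower, Chmp2a (-0.30 ± 0.08, adjusted p = 0.0293) and Rab31 (-0.30 ± 0.08, adjusted p = 0.0257), a share near the 13% of all genes called. Both calls were lost in a single fit of the 3 groups (adjusted p = 0.0902 and 0.414). Rab31 was also lost without resident replicate 2 or transplanted replicate 1, and Chmp2a without resident replicate 1 or 4 or transplanted replicate 3 or 4 and with the length trend removed. Sdcbp stood at 0.02 ± 0.08 (adjusted p = 0.895). Against cultured cells 3 were higher and 7 lower, beside 72.4% of all genes called, with Rab27a at 2.01 ± 0.26 (adjusted p = 7.08e-05), Stam at 0.62 ± 0.20 (adjusted p = 0.0166, but 0.299 with the length trend removed), Chmp4b at -3.20 ± 0.42 (adjusted p = 7.17e-05) and Sdcbp at -2 ± 0.21 (adjusted p = 1.39e-05). In TPM the counts were 8 and 3, beside 7824 higher and 1921 lower of all genes.

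The genes whose profiles lay closest to each member were found by Euclidean distance between log2 CPM profiles over the 11 libraries, each centred on its own mean, among 11676 genes tested in all 3 comparisons. Near Cd63 were Trim25 (distance 0.354), Coq7 (0.50) and Mgmt (0.516). Near Cd81 were Sting1 (0.331), with 95.3, 877 and 1027 CPM in cultured, resident and transplanted cells, Smpd5 (0.362) and Slc29a3 (0.422). Oma1, Maml2 and Zfp260 lay nearest to Cd37, Herc2, Dock10 and Nudt7 to Cd82, Mkln1, Usp54 and Tmem143 to Cd151, Nme7, Tmem60 and Atraid to Cd9, and Capza2, Pcmt1 and Pdcl to Cd53. Among the members, Cd37 and Cd82 were the closest pair (0.56), followed by Cd9 and Cd53 (0.725). The distances share the libraries and their depth, and carry no test.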

How the data were processed

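Smart-Seq libraries were made from 1 ng of RNA, per the labels' protocols, which do not give strand. The authors deposited 3 values for each gene and library, which the file headers name expected count, TPM and FPKM. The deposited expected counts carry no scaling to library size, and 81.5% to 84.9% of those in a library were whole numbers. In the deposited TPM the authors corrected for gene length and depth. The 11 FPKM columns of the deposited table were not used. HISAT, Bowtie2 and the build GRCm38.p6 are named in the submitters' processing notes. The sources used here name no version, read counter or annotation. RefSeq genes of GRCm38.p6 gave symbols and coordinates for 16845 of 16894 identifiers (99.7%). Reads of the pseudogenes Cd9-ps and Cd63-ps, and of non-coding genes that overlap Cd9, Cd81, Cd82 and Cd151, could have been counted with these members. None of these genes was found under its symbol in the deposited table, and their reads were not analysed here.

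Expected counts were rounded and the libraries of 2 groups at a time entered a fit in edgeR 4.0.16, run in R 4.3.3 (TMM, filterByExpr, quasi-likelihood test, Benjamini-Hochberg over all genes tested, call at 0.05). Libraries were grouped by their titles. Alternatives were DESeq2 1.42.0, no filter, 1 fit of all groups, limma 3.58.1 on log2(TPM + 1) for genes with a mean TPM of at least 1, removal of each library's lowess trend on length, leaving out each library, and replicate numbers as a block. In simulated counts the edgeR fit recovered 48% of 2-fold and 94% of 4-fold changes between cultured and resident cells (12406 genes), 70% and 96% between transplanted and resident cells (11929 genes), and 44% and 90% between transplanted and cultured cells (12284 genes). Each simulation changed 50 genes at each fold of 1.5, 2, 4 and 8. That is a far smaller share than the 75.1%, 13% and 72.4% of genes called in the data. The adjusted p depends on this share, so recovery in the data can differ. A count of 0 allows up to 3 counts, or 0.135 to 0.147 CPM in a library. Reads carry no molecular identifiers, and such limits and intervals therefore describe counting error alone. Members and lists were chosen with earlier results of these data known. Named were all members and, per comparison, up to 3 other tetraspanins, 4 partners and 2 vesicle genes in each direction, being the called genes of at least 5 CPM in a group with the largest log2 fold changes, and the 3 nearest profiles of each member; other genes named were chosen after their values were seen. Some marker values are not reported here.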

Additional observations from a re-analysis of the deposited data

Results flagged for a closer look

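Among 35 genes named in the text, up to 70 groups of 4 libraries were checked for a library far from the others. Groups with all values equal, as for Timp1 in resident libraries, were left out. Chance flags about 1 in 20 such groups where values are not tied, and 4 were flagged here. None was a member of the 7 tetraspanins. Clec7a in resident replicate 2 stood at 15.2 CPM, against 10.4 to 10.8 in the other resident libraries. Rab31 stood at 262 CPM in resident replicate 2, against 236 to 239 in the others, and at 221 CPM in transplanted replicate 4, against 187 to 191. Timp1 stood at 0.0453 CPM, a single read, in transplanted replicate 1 and at 0 in the others, a pattern that this check always flags.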

How the results depend on the processing

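Of 1386 values of single genes under an alternative, 1288 kept their direction and their side of the threshold. The differences of Cd37, Cd63, Cd81, Cd82 and Cd151 from cultured cells did so in every alternative run. The cause of the changes below was not tested.

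In cultured against resident cells the log2 fold change had the opposite sign in TPM for Cd9 (-0.95), Cd74 (-0.92), Tspan32 (-0.55) and Tspan4 (-0.61), and with the length trend removed for Cd9 (-0.63), Cd53 (0.13), Cd74 (-0.57), Rab31 (0.11) and Tspan4 (-0.13). In transplanted against cultured cells it did so in TPM for Cd9 (0.87), Cd53 (1.01), Rab31 (1.07) and Tspan4 (0.50), and with the length trend removed for Cd9 (0.61) and Tspan4 (0.04). The median gene itself moved in TPM by -1.05 in the first of these comparisons and by 1.04 in the other. Sdcbp in transplanted against resident cells stood at -0.01 with the length trend removed. With 1 library left out, signs changed within these ranges: Cd53 -0.13 to 0.09, Cd74 -0.07 to 0.29, H2-Ab1 -0.31 to 0.04 and Rab31 -0.38 to 0.04 in cultured against resident cells, Cd9 -0.20 to 0.00, Chmp4b -0.31 to 0.02 and Sdcbp -0.07 to 0.06 in transplanted against resident cells, and Rab31 -0.35 to 0.07 in transplanted against cultured cells.

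Counts in TPM, cultured against resident, were 3 other tetraspanins higher, 13 partners lower, 3 vesicle genes higher and 8 lower, and 2089 of all genes higher and 7898 lower. In transplanted against cultured cells TPM gave 8 vesicle genes higher and 3 lower, and 7824 of all genes higher and 1921 lower. With the length trend removed, 3 other tetraspanins were higher in cultured than resident cells, 1 other tetraspanin was higher and 1 vesicle gene lower in transplanted than resident cells, and 2 members were lower in transplanted than cultured cells.

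In transplanted against resident cells, 1 member and 1 other tetraspanin were higher without the filter. A single fit of all groups gave 0 members and 1 other tetraspanin higher, 0 vesicle genes lower, and 507 of all genes higher and 405 lower. With 1 library left out, 0 to 1 members, 1 to 3 other tetraspanins and 511 to 875 of all genes were higher and 1 to 2 vesicle genes lower; in transplanted against cultured cells, 1 to 2 members were lower.

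The replicate numbers share no stated animal or day, and same-numbered libraries deviated together at correlations of -0.069 to 0.054, so the pairing was not used. With the replicate number as a block, 0 members and 1 other tetraspanin were higher and 0 vesicle genes lower in transplanted than resident cells.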
